A study of Mus musculus with 10 samples.

Results

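The genes described here are 7 genes of iron handling and metal binding, namely Fth1, Ftl1, Tfrc, Heph, Cybrd1, Mt1 and Mt2. They were chosen by name out of the 55487 genes of the deposited table by a rule that uses no measured value, though with earlier results of these data known, and each name matched 1 row. RNA was sequenced from colonic intestinal epithelial cells (IECs) of 5 wild type (WT) mice and 5 RhoB-/- mice, all on the C57BL/6J background and untreated as far as the labels say. RhoB-/- mice lack Rhob, a small GTPase, in every cell of the body, so the deletion was not limited to the epithelium. Mice were used at 6 to 8 weeks of age unless stated otherwise in the methods. The methods also say that WT males were bought from another source than the one that made the knockout line. Whether the WT mice sequenced here were bought or littermates is not stated. If they were bought, genotype and source of the mice cannot be told apart. IECs were released from whole colon with EDTA and were not sorted.

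Iron enters most cells as transferrin, which is taken up by the transferrin receptor Tfrc. Iron that is not used is stored in ferritin, a shell built of heavy chains (Fth1) and light chains (Ftl1). In the absorptive epithelium Cybrd1 reduces dietary iron at the apical side, ferroportin (Slc40a1) exports iron at the basolateral side, and Heph, a copper-containing ferroxidase, oxidizes it on the way out. Metallothioneins such as Mt1 and Mt2 are small cysteine-rich proteins that bind zinc and copper, and their transcription is switched on by the zinc-sensing factor Mtf1 as well as by stress and glucocorticoids. The transcripts of ferritin and of Tfrc carry iron response elements, short hairpins bound by the iron regulatory proteins (Aco1 and Ireb2) when iron is scarce. Binding in front of the coding sequence blocks translation, and binding behind it protects the transcript from decay.

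The sites below are shown because they lie on opposite sides of the coding sequence in the ferritin genes and in Tfrc. A search of the GENCODE M21 transcripts (GRCm38) for a bulged C, a stem of 5 paired bases and the loop CAGTGN found 1 site each in the 5′ UTR of Fth1, Ftl1 and Slc40a1, and 4 sites in the 3′ UTR of Tfrc. The loop is in capitals, and no such site was found in the searched transcripts of Heph, Cybrd1, Mt1, Mt2, Slc11a2 or Epas1. The pattern is strict, and Slc11a2 and Epas1 are known to carry elements of a variant form, so a lack of matches says only that these letters were not found. The Fth1 site lies at chr19:9982732-9982760 (plus strand), the Ftl1 site at chr7:45459779-45459807 (minus strand) and the Slc40a1 site at chr1:45925465-45925493 (minus strand). The Tfrc sites follow each other on the plus strand of chromosome 16, with the positions given beside them.
Fth1, 5′ UTR: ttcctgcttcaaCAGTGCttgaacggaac
Ftl1, 5′ UTR: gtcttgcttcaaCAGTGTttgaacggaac
Slc40a1, 5′ UTR: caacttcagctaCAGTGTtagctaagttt
Tfrc, 3′ UTR, chr16:32631219-32631247: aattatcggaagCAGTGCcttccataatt
Tfrc, 3′ UTR, chr16:32631598-32631626: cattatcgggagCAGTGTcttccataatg
Tfrc, 3′ UTR, chr16:32631663-32631691: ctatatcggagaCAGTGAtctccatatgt
Tfrc, 3′ UTR, chr16:32631710-32631738: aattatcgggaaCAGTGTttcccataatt

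The metallothionein genes lie next to each other on chromosome 8, where Mt4, Mt3, Mt2 and Mt1 take up 43131 bp from 94137197 to 94180327, all in the plus orientation in the order given. The core of the metal response element bound by Mtf1 was searched as TGCACNC or TGCGCNC on both strands in the first 180 bases of a GENCODE M21 transcript of each gene. Mt1 held 4 matches and Mt2 held 3, none overlapping another, and all lay ahead of the TATAAA of the gene, which is itself inside these annotated transcripts. Of 58664 protein-coding transcripts of that length or longer, 17.6% held at least 1 match, 0.506% held at least 3 and 0.0801% held at least 4. In the 300-base promoter windows of RefSeq (GRCm38.p6), Mt1 had 3 matches, Mt2 had 4, Slc30a1 had 2, Mt3 and Mt4 had 1 each, and 1 of the 2 Tfrc windows had 2. The Mt1 window (94178839 to 94179138) overlaps the transcript start and includes the matches printed below from 94179087 and 94179105. These are therefore not separate from the matches of the first search. Of all 32851 windows, 25.7% had at least 1 and 1.97% at least 3. The matches are printed in capitals with 4 bases on either side, and a match on the minus strand reads as GNGTGCA or GNGCGCA.
Mt1, chr8:94179087-94179101: gctcTGCACTCcgcc
Mt1, chr8:94179105-94179119: aaagTGCGCTCggct
Mt1, chr8:94179169-94179183, minus strand: tgctGGGTGCAaacc
Mt1, chr8:94179183-94179197: ccttTGCGCCCggac
Mt2, chr8:94172672-94172686, minus strand: gggcGTGTGCAggcg
Mt2, chr8:94172691-94172705, minus strand: gggcGCGTGCAtggt
Mt2, chr8:94172725-94172739: ctttTGCGCTCgacc

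Since Mt1 and Mt2 are close copies, their coding sequences are set side by side, with the bases that differ in capitals. Both are 186 bases long, 38 bases differ, and the identity is 79.6%. The longest stretch without a difference is 20 bases.
Mt1, coding sequence: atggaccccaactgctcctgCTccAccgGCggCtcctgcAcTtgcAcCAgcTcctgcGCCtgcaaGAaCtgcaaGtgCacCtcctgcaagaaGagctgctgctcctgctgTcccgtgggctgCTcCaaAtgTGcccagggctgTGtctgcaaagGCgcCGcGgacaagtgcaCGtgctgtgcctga
Mt2, coding sequence: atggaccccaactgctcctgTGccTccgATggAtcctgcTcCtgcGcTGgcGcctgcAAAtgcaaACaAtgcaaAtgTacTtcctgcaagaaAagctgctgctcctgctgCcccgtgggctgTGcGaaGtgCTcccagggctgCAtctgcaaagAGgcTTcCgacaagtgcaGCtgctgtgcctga

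Values are TPM, a measure of transcript abundance scaled by length and to a nearly constant total per library, so levels of different genes can be compared within a library but the number of reads behind them is unknown. Genotypes were compared with limma on log2(TPM + 1). A mean of 1 TPM over the 10 libraries was required, which 12870 genes met, and a gene was called at a Benjamini-Hochberg adjusted p below 0.05 over all of them. The median log2 fold change of all tested genes was -0.13, so a gene at 0 lay slightly above the typical gene. Libraries had 20261 to 21344 genes above 0, and the mitochondrial share of all TPM was 17.5% to 26.5% in WT and 10.3% to 22.4% in RhoB-/- libraries. Rhob itself had 170.5 to 388.7 TPM in WT mice and 0.09 to 0.57 TPM in RhoB-/- replicates 1 to 4, but 110.9 TPM in the library labelled RhoB-/- replicate 5, which goes against its label. The genotype comparisons of the 7 genes are therefore also given without that library. All 10 epithelial markers were above the filter, and 4 of them were higher in RhoB-/- mice (Krt20, Vil1 and Cldn7 among them). This is 40% called, against 21.2% of all tested genes. The summed TPM of the 10 markers was 13114 to 15442 in WT and 13255 to 20466 in RhoB-/- libraries.

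In RhoB-/- IECs, Mt1, Mt2 and Tfrc were lower and Heph was higher than in WT IECs, while the ferritin transcripts Fth1 and Ftl1 did not pass the test and Cybrd1 was close to 0 in both genotypes. Mean TPM was 71.0% lower for Mt1, 83.3% lower for Mt2 and 50.5% lower for Tfrc, and it was 1.52 times the WT mean for Heph. Of the 6 members above the filter, 4 were called, 3 lower and 1 higher, where 21.2% of all tested genes were called, 13.5% lower and 7.73% higher. For the same 4 genes the 5 RhoB-/- libraries did not overlap the 5 WT libraries, which was the case for 14.5% of all tested genes. Leaving out the library labelled RhoB-/- replicate 5 changed none of the 6 calls. By the rule of an unadjusted p below 0.05 with a fold above 1.5 on the same scale, the 3 lower members passed (8.33% of all tested genes were lower by it, and 6.37% higher), while Heph with a log2 fold change of 0.58 fell just short.

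**Figure D1:**
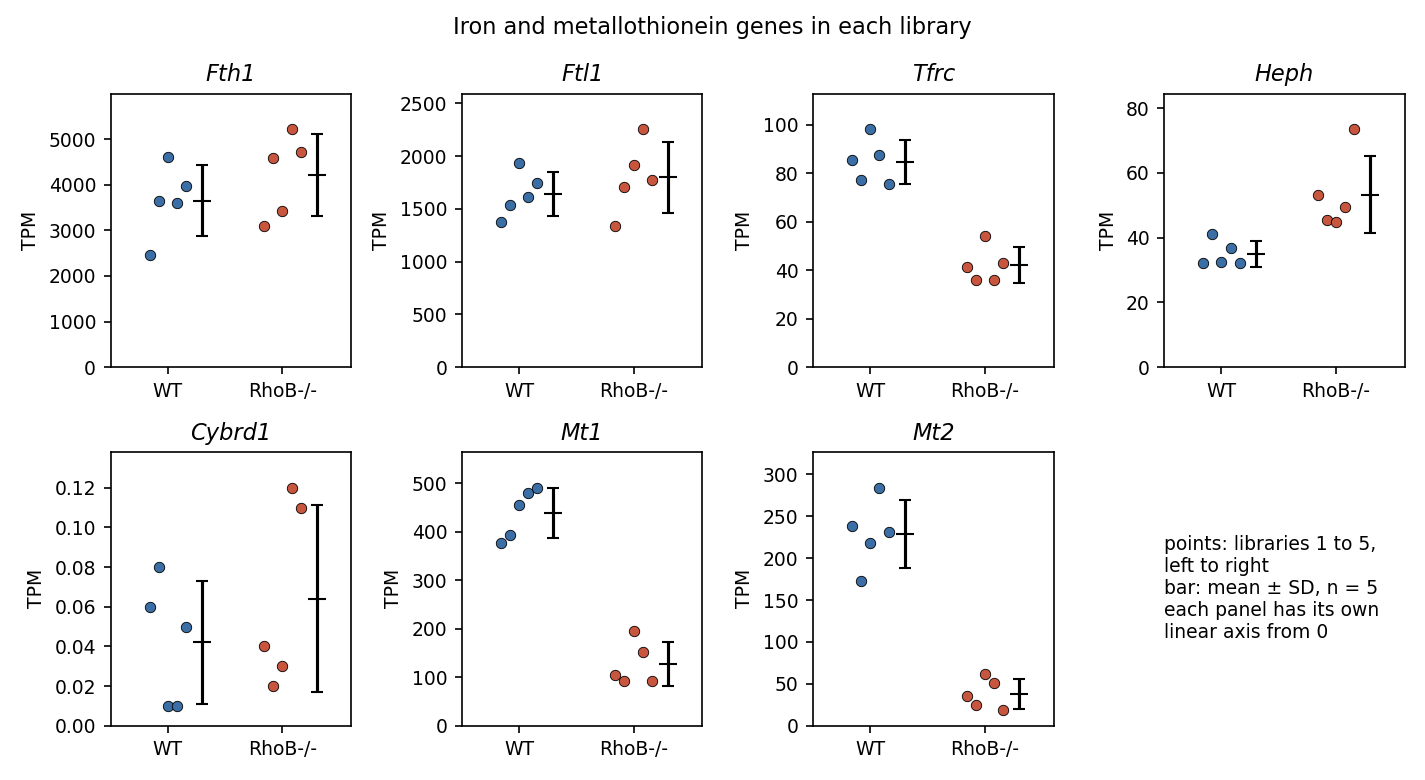
TPM of the 7 genes in each library, 1 panel per gene with its own linear axis from 0. Points are libraries 1 to 5 of each genotype from left to right, and bars give the mean ± SD (n = 5). The genotypes are apart for Tfrc, Heph, Mt1 and Mt2 and overlap for Fth1, Ftl1 and Cybrd1.

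Mt1 (ENSMUSG00000031765, chromosome 8, 94179082 to 94180327) had 377.5, 392.8, 454.5, 479.7 and 490.5 TPM in WT replicates 1 to 5. In RhoB-/- replicates 1 to 5 it had 103.8, 92.5, 196.0, 151.4 and 92.3 TPM. The groups were far apart, with RhoB-/- replicate 3 nearest to the WT libraries. WT mice averaged 439.0 ± 51.2 TPM and RhoB-/- mice 127.2 ± 45.5 TPM (SD, n = 5 each). The log2 fold change was -1.84 (standard error 0.20, 95% confidence interval -2.28 to -1.40, adjusted p = 1.04e-04, limma), and 46 of the 12870 tested genes, Mt1 included, had one as low or lower. Without the library labelled RhoB-/- replicate 5 it was -1.74 (adjusted p = 5.55e-04, limma).
Mt2 (ENSMUSG00000031762, chromosome 8, 94172664 to 94173568) had 238.6, 172.5, 218.1, 284.2 and 230.9 TPM in WT replicates 1 to 5. The RhoB-/- replicates 1 to 5 had 35.6, 24.5, 61.5, 50.5 and 18.8 TPM. As for Mt1, RhoB-/- replicates 3 and 4 were the highest of their group and still well below every WT library. WT mice averaged 228.8 ± 40.2 TPM and RhoB-/- mice 38.2 ± 17.8 TPM (SD, n = 5 each). The log2 fold change was -2.66 (standard error 0.28, 95% confidence interval -3.27 to -2.05, adjusted p = 7.06e-05, limma), and 16 of the tested genes, Mt2 included, had one as low or lower. It was -2.45 without the library labelled RhoB-/- replicate 5 (adjusted p = 1.59e-04, limma).
Mt1 and Mt2 did not fall in proportion, Mt2 being the more reduced of the pair. The Mt1 to Mt2 ratio was 1.58, 2.28, 2.08, 1.69 and 2.12 in WT replicates 1 to 5, and 2.92, 3.77, 3.19, 2.996 and 4.90 in RhoB-/- replicates 1 to 5. Every RhoB-/- library had a higher ratio than every WT library, with a difference of 0.85 on the log2 scale (two-sided exact permutation, p = 0.00794, which is the lowest value possible with 5 against 5, and 0.0119 adjusted over the 3 ratios examined). Without the library labelled RhoB-/- replicate 5 the difference was 0.73 (exact permutation, p = 0.0159, the lowest possible with 5 against 4). A ratio taken within a library does not depend on the TPM total. The summed TPM of both genes was 565.3 to 763.9 in WT and 111.2 to 257.5 in RhoB-/- libraries.
The remaining genes of the locus were much lower. Mt3, known mainly from the brain, averaged 13.5 ± 4.02 TPM in WT libraries against 8.71 ± 3.58 TPM in the others (SD, n = 5 each), and its log2 fold change of -0.61 did not pass (95% confidence interval -1.19 to -0.03, adjusted p = 0.122, limma). Mt4, a gene of stratified epithelia, was below the filter with at most 0.87 TPM in any library. An antisense gene that overlaps Mt2, Gm45774, had at most 1.01 TPM.

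**Figure D2:**
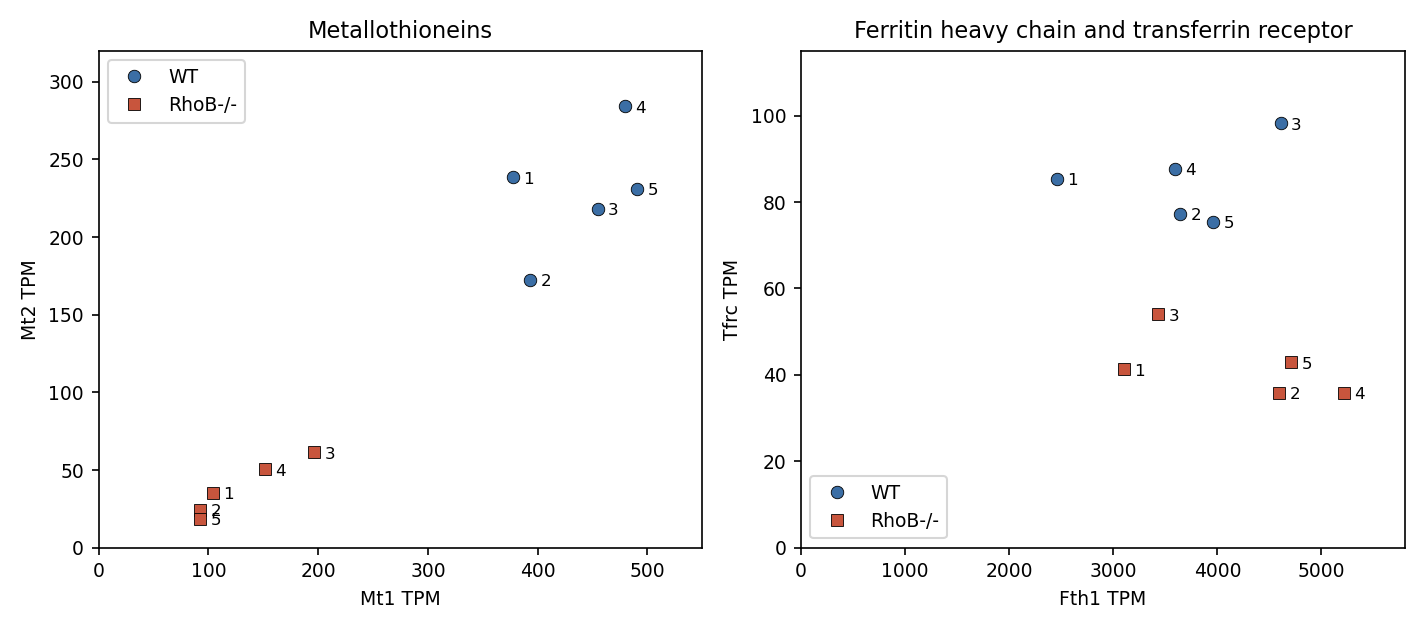
Each point is a library, with its replicate number beside it, on linear axes from 0. On the left Mt2 TPM is plotted against Mt1 TPM, and the RhoB-/- libraries (squares) lie towards the origin, below 200 TPM of Mt1. On the right Tfrc TPM is plotted against Fth1 TPM, and the genotypes are apart along the Tfrc axis, while their Fth1 values overlap.

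Tfrc (ENSMUSG00000022797, chromosome 16, 32608920 to 32632794) had 85.3, 77.3, 98.2, 87.7 and 75.4 TPM in WT replicates 1 to 5. In RhoB-/- replicates 1 to 5 it had 41.3, 35.9, 54.0, 35.9 and 42.9 TPM. The spread within each genotype was small, and RhoB-/- replicate 3 came nearest to WT. WT mice averaged 84.8 ± 9.10 TPM and RhoB-/- mice 42.0 ± 7.43 TPM (SD, n = 5 each), and the log2 fold change was -1.01 (standard error 0.13, 95% confidence interval -1.28 to -0.73, adjusted p = 3.04e-04, limma). It was -1.02 without the library labelled RhoB-/- replicate 5 (adjusted p = 0.00128, limma). Tfrc is known to be high in dividing cells, and of 18 proliferation markers 7 were lower and 0 higher in RhoB-/- mice (38.9% called, against 21.2% of all tested genes), with a median log2 fold change of -0.59. Their summed TPM was 490.1 to 678.1 in WT and 258.3 to 651.9 in RhoB-/- libraries, so these sums overlapped where Tfrc did not, and none of the markers was at 0. Among those called, Mcm3 had -0.83, Mcm5 -0.69 and Mki67 -0.69 (log2 fold change, adjusted p = 0.0163, 0.0427 and 0.0307, limma). Their part in the Tfrc difference was not tested. By staining for the protein, the paper reports more Ki67-positive cells in RhoB-/- colonic epithelium, the other direction from the Mki67 transcript here. In these bulk samples fewer cells with a transcript and less of it per cell cannot be told apart.

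The ferritin chains were the most abundant of the 7 transcripts. Fth1 (ENSMUSG00000024661, chromosome 19, 9980598 to 9985098) had 2458, 3642, 4607, 3593 and 3962 TPM in WT replicates 1 to 5. The RhoB-/- replicates 1 to 5 had 3104, 4592, 3433, 5216 and 4709 TPM. Only RhoB-/- replicates 4 and 5 exceeded every WT library. The means were 3653 ± 780.5 and 4211 ± 899.3 TPM (SD, n = 5 each), a log2 fold change of 0.21 with a 95% confidence interval from -0.22 to 0.63 (adjusted p = 0.469, limma).
Ftl1 (ENSMUSG00000050708, chromosome 7, 45457944 to 45459884) had 1373, 1541, 1936, 1611 and 1742 TPM in WT replicates 1 to 5. In RhoB-/- replicates 1 to 5 it had 1335, 1710, 1916, 2256 and 1773 TPM. The RhoB-/- values reached beyond the WT range at both ends. The means were 1640 ± 212.2 and 1798 ± 333.8 TPM (SD, n = 5 each), a log2 fold change of 0.12 with a 95% confidence interval from -0.21 to 0.45 (adjusted p = 0.591, limma). Without the library labelled RhoB-/- replicate 5 the log2 fold changes were 0.16 for Fth1 and 0.12 for Ftl1 (adjusted p = 0.637 and 0.644, limma). A microRNA gene on the same strand inside Ftl1, Gm22133, had 52.59 TPM in 1 RhoB-/- library and was at 0 in all others. The 8 ferritin pseudogene rows of the table added up to at most 3.31 TPM in a library, but reads could have been split between the genes and their copies before the table was made.
No difference in the proportion of the chains was detected. The Fth1 to Ftl1 ratio was 1.79 to 2.38 in WT (median 2.27) and 1.79 to 2.69 in RhoB-/- libraries (median 2.32), a log2 difference of 0.09 (exact permutation test, two-sided p = 0.524, adjusted p = 0.524), and of 0.0379 without the library labelled RhoB-/- replicate 5. The ratio of Fth1 to Tfrc, a storage and an uptake gene, did differ. It was 28.8, 47.1, 46.9, 41.0 and 52.5 in WT replicates 1 to 5, and 75.2, 127.9, 63.5, 145.4 and 109.8 in RhoB-/- replicates 1 to 5. The log2 difference was 1.23 (exact permutation test, two-sided p = 0.00794, adjusted p = 0.0119), and every RhoB-/- library lay above every WT library. Leaving out the library labelled RhoB-/- replicate 5 gave 1.20 (exact permutation, p = 0.0159).

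Heph (ENSMUSG00000031209, chromosome X, 96455359 to 96574485) had 32.2, 41.2, 32.4, 36.8 and 32.3 TPM in WT replicates 1 to 5. The RhoB-/- replicates 1 to 5 had 53.2, 45.4, 44.7, 49.6 and 73.5 TPM. The lowest RhoB-/- library was only a little above the highest WT library, and the library labelled RhoB-/- replicate 5 was the highest of all. WT mice averaged 35.0 ± 3.97 TPM and RhoB-/- mice 53.3 ± 11.8 TPM (SD, n = 5 each), and the log2 fold change was 0.58 (standard error 0.14, 95% confidence interval 0.27 to 0.88, adjusted p = 0.0149, limma). Without the library labelled RhoB-/- replicate 5 it was 0.45 (adjusted p = 0.0207, limma). Heph is known from differentiated absorptive cells, and of 10 markers of surface colonocytes 5 were higher and 0 lower in RhoB-/- mice (50% called, against 21.2% of all tested genes), with a median log2 fold change of 0.96. Their summed TPM was 18808 to 28576 in WT and 34695 to 56883 in RhoB-/- libraries, without overlap, and none was at 0. Car1 and Lypd8 made up most of these sums. Krt20, 1 of the 5 called, was also counted among the epithelial markers. The genotypes overlapped for Car1 and were apart for Lypd8 (3348 to 6889 TPM in WT, 13357 to 20395 TPM in RhoB-/-). Of the markers not called, Slc20a1 (-0.64) and Guca2a (-0.03) were below 0 on the log2 scale. Slc26a3 (0.28), Car1 (0.39) and Clca4a (0.82) were above 0. The largest differences among those called were 1.65 for Lypd8, 1.44 for Aqp8 and 1.22 for Ceacam1 (log2 fold change, adjusted p = 2.14e-04, 0.0103 and 6.62e-04, limma). Their part in the Heph difference was not tested.
Cybrd1 (ENSMUSG00000027015, chromosome 2, 71117923 to 71142926), the duodenal ferric reductase, had 0.01 to 0.08 TPM in WT libraries (median 0.05) and 0.02 to 0.12 TPM in RhoB-/- libraries (median 0.04). It stayed below the filter, and the genotypes overlapped (exact permutation test, two-sided p = 0.437, or 0.746 without the library labelled RhoB-/- replicate 5). At such values a difference was not detectable.

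By level, the WT order was Fth1, Ftl1, Mt1, Mt2, Tfrc, Heph and Cybrd1, each above the next in 5 of 5 libraries and without overlap of their ranges. In RhoB-/- IECs the order was Fth1, Ftl1, Mt1, Heph, Tfrc, Mt2 and Cybrd1. Heph there exceeded Tfrc in 4 of 5 libraries and Tfrc exceeded Mt2 in 3 of 5, so these neighbours did not differ beyond their spread. The ratio of mean Mt2 to mean Tfrc was 2.70 in WT.

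**Figure D3:**
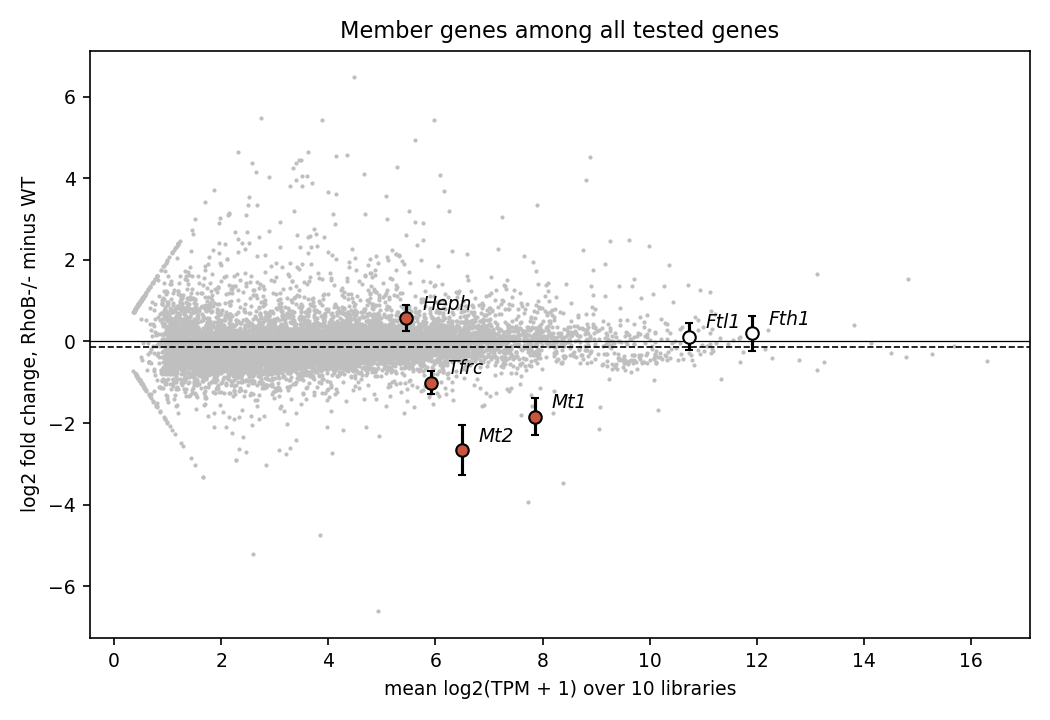
Log2 fold change (RhoB-/- minus WT) against mean log2(TPM + 1) over 10 libraries for the 12870 tested genes (grey) and the 6 members above the filter. Filled points passed an adjusted p below 0.05, bars are 95% confidence intervals, and the dashed line is the median of all genes at -0.13. Mt1 and Mt2 lie below nearly all genes of their abundance, and the intervals of Fth1 and Ftl1 include 0.

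Over the 10 libraries pooled, the metallothioneins varied together around their genotype means, as did the ferritin chains. After subtraction of the genotype means of log2(TPM + 1), Pearson's r over the 10 libraries was 0.883 between Mt1 and Mt2, 0.784 between Fth1 and Ftl1, and -0.631 between Heph and Mt2. These are descriptions, since all genes of a library share its total and cell make-up. No r was computed for either genotype alone, so the pooled values do not show joint variation in each. Among WT libraries, replicate 1 had the lowest Mt1 (377.5 TPM) but more Mt2 (238.6 TPM) than replicates 2, 3 and 5. For Heph and Mt2, the library labelled RhoB-/- replicate 5 had the highest Heph (73.52 TPM) and the lowest Mt2 (18.83 TPM) of all. No r was computed without this library, so how far the value of -0.631 rests on it is not known. Among the 9281 genes averaging 5 TPM or more, those nearest to each member in this sense were Espl1 (0.979) and Slc50a1 (0.963) for Mt1, Dtd1 (0.957) and Slc12a8 (0.942) for Mt2, and Timm10b (0.951) and Glrx2 (0.946) for Tfrc. For Fth1 they were Ces2c (0.932) and Cdkn2b (0.927), for Ftl1 Slc3a2 (0.947) and 2610035D17Rik (0.932), and for Heph the catenins Ctnna1 (0.980) and Ctnnd1 (0.979).

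The wider set of metal genes comprised 107 other genes in 5 lists for iron transport, iron sensing and heme, iron-sulfur clusters, zinc, and copper. Of the 90 above the filter, 6 were higher and 16 lower in RhoB-/- mice (24.4% called, against 21.2% of all tested genes), with a median log2 fold change of -0.12 (-0.13 for all tested genes). The 6 include Hamp and Steap4, which averaged under 1 TPM in WT. These counts moved with the scaling, to 12 higher and 18 lower with each library centred on its median. After removal of the mitochondrial genes they were 7 higher and 31 lower of 91. The counts over all tested genes moved too, from 995 higher and 1734 lower to 2010 higher and 1645 lower with centring. Without the mitochondrial genes 1101 of all 13287 were higher and 3729 lower. Leaving out RhoB-/- replicate 3 gave 27 lower genes, and leaving out WT replicates 2 or 4 or RhoB-/- replicates 1, 2 or 4 gave 7 to 10. Of all 12870 tested genes, 2929 were lower without RhoB-/- replicate 3, and 860 to 1200 without any of those others.

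Iron transport genes moved in both directions, with 3 of 18 higher and 5 lower (44.4% called, against 21.2% of all tested genes, median log2 fold change -0.28). Of the 3 higher genes, Hamp and Steap4 averaged under 1 TPM in WT and passed the filter only through the RhoB-/- libraries, so these 2 had to differ and their calls are no support for the count. Hamp, which encodes hepcidin, the hormone that removes ferroportin from the cell surface, was listed at 0 in all 5 WT libraries and had 2.32, 1.96, 2.44, 3.08 and 5.68 TPM in RhoB-/- replicates 1 to 5. A value of 0 can be a failed estimate. The neighbouring copy Hamp2 averaged 0.552 ± 0.626 TPM in WT libraries against 0.916 ± 0.285 TPM in the others (SD, n = 5 each) and was below the filter.
Steap4, a metalloreductase known to respond to inflammation, had 0.32, 0.74, 1.14, 1.13 and 0.96 TPM in WT and 5.55, 4.05, 2.78, 2.68 and 5.29 TPM in RhoB-/- replicates 1 to 5, or 1.43 on the log2 scale. Lrp1, a receptor that also takes up heme bound to hemopexin, rose by 0.70 on the log2 scale (adjusted p = 0.0185, limma).
The lower genes included 3 that act around transferrin. Trf, transferrin itself, averaged 13.8 ± 4.72 TPM in WT libraries against 6.00 ± 2.63 TPM in the others (SD, n = 5 each), or -1.10 on the log2 scale (adjusted p = 0.0149, limma). Hfe, a binding partner of the transferrin receptor, and Steap3, the reductase that acts on iron released from transferrin in endosomes, were at -0.70 and -0.69 on the log2 scale (adjusted p = 0.00954 and 0.00689, limma). Steap2, a related reductase, had -0.69 (adjusted p = 0.00528) and the heme transporter Slc48a1 had -0.42 (adjusted p = 0.0273). The call of Slc48a1 was lost when any of 7 libraries was left out (WT replicates 2, 4 and 5 and RhoB-/- replicates 1, 2, 4 and 5, with an adjusted p of 0.0538 to 0.0760).
The main importer and exporter did not pass. Slc11a2, which imports ferrous iron, had 14.7 ± 2.45 and 12.2 ± 1.84 TPM (SD, n = 5 each), a log2 fold change of -0.25 (95% confidence interval -0.54 to 0.04, adjusted p = 0.195). Slc40a1, the exporter with which Heph works, had 42.2 ± 10.6 and 44.3 ± 16.5 TPM (SD, n = 5 each), a log2 fold change of 0.03 (95% confidence interval -0.50 to 0.56, adjusted p = 0.939). Abcg2, an exporter of porphyrins and drugs, had 0.48 (adjusted p = 0.0601, limma). Its adjusted p was below 0.05 without WT replicate 3 (0.0432) or RhoB-/- replicate 2 (0.0452), and under the 3 other scalings (0.0144 to 0.0434).

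Of 19 genes of iron sensing, ferritin turnover and heme, 0 were higher and 3 lower (15.8% called, against 21.2% of all tested genes, median log2 fold change -0.25). Hmox1, the stress-induced enzyme that breaks down heme, had 3.50, 4.77, 7.06, 5.84 and 4.27 TPM in WT and 1.14, 2.77, 2.17, 3.47 and 2.10 TPM in RhoB-/- replicates 1 to 5, or -0.88 on the log2 scale (adjusted p = 0.0135, limma). The heme synthesis enzymes Fech and Cpox had -0.38 and -0.44 (adjusted p = 0.0186 and 0.0412, limma). Fech lost its call without WT replicate 4 (adjusted p = 0.0508), and Cpox without any library other than WT replicate 3 or RhoB-/- replicate 3 (adjusted p = 0.0503 to 0.0989). The iron regulatory proteins Aco1 and Ireb2 were at -0.24 and -0.11 on the log2 scale (adjusted p = 0.181 and 0.509), and Ncoa4, which delivers ferritin for breakdown, had 0.02 (adjusted p = 0.906). Alas1, the first enzyme of heme synthesis, had 0.09 (adjusted p = 0.706), and the iron chaperones Pcbp1 and Pcbp2 had -0.27 each (adjusted p = 0.130 and 0.140). Without RhoB-/- replicate 3 the adjusted p of Pcbp1 was 0.00924. After removal of the mitochondrial genes the adjusted p was 0.0243 for Aco1, 0.0168 for Pcbp1 and 0.0138 for Pcbp2, and with quantile normalization it was 0.0209, 0.0181 and 0.00879, all lower in RhoB-/- mice.

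Zinc genes gave 2 higher and 3 lower of 18 (27.8% called, near the 21.2% of all tested genes, median log2 fold change -0.05). Slc39a4 (ZIP4), the zinc importer of the apical membrane, had 93.3, 106.4, 106.5, 96.3 and 84.9 TPM in WT replicates 1 to 5. In RhoB-/- replicates 1 to 5 it had 216.1, 219.1, 251.2, 225.5 and 353.7 TPM. All RhoB-/- libraries were thus at more than 2 times the highest WT value, and the log2 fold change was 1.35 (standard error 0.14, adjusted p = 7.69e-05, limma). Slc30a1 (ZnT1), a zinc exporter and known target of Mtf1, had 10.4, 14.2, 13.9, 13.3 and 14.8 TPM in WT and 21.9, 20.9, 22.8, 23.2 and 35.6 TPM in RhoB-/- replicates 1 to 5. Its log2 fold change was 0.84 (standard error 0.15, adjusted p = 0.00288, limma), opposite in sign to that of Mt1 and Mt2. Mtf1 itself had 9.30 ± 1.09 and 9.08 ± 1.82 TPM (SD, n = 5 each), or -0.04 on the log2 scale (adjusted p = 0.840).
The lower genes were the zinc transporters Slc39a5, Slc39a7 and Slc39a13, at -0.45, -0.40 and -0.55 on the log2 scale (adjusted p = 0.0408, 0.0328 and 0.0318, limma). Each of these calls was lost when certain single libraries were left out. Slc39a5 lost it without WT replicates 2, 3 or 4 or RhoB-/- replicates 1, 2 or 4 (adjusted p = 0.0667 to 0.105). Slc39a7 lost it without WT replicates 1, 2, 4 or 5 or RhoB-/- replicates 1, 2 or 5 (0.0524 to 0.0805), and Slc39a13 without WT replicates 2 or 4 or RhoB-/- replicates 1, 2 or 4 (0.0529 to 0.0805).

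**Figure D4:**
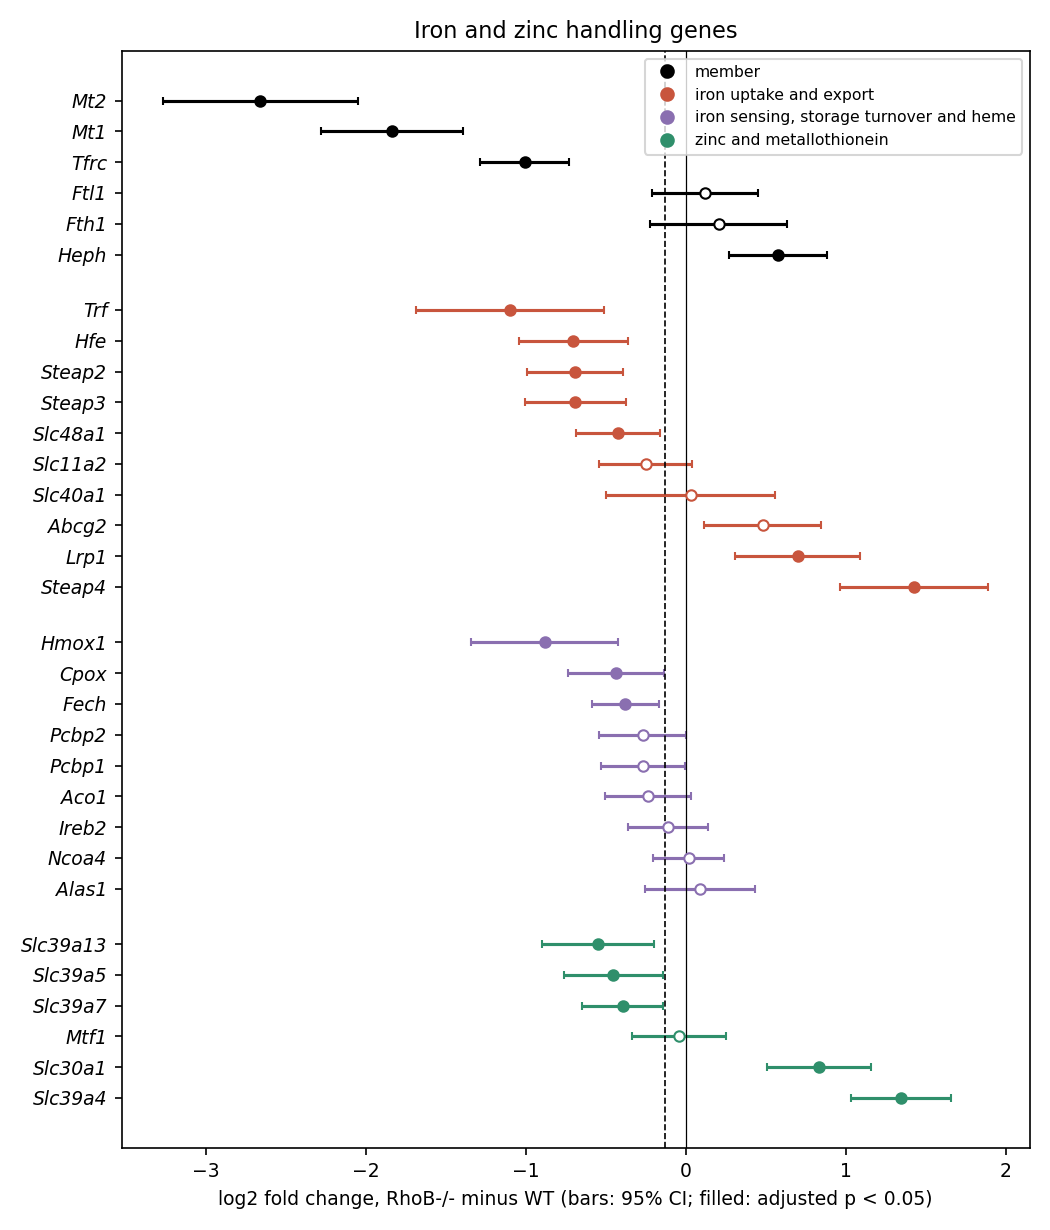
Log2 fold changes (RhoB-/- minus WT) of the 6 members above the filter and of the named iron and zinc genes, with 95% confidence intervals from limma. Hamp, at 0 in all WT libraries, is not drawn. Filled points had an adjusted p below 0.05, the dashed line is the median of all tested genes at -0.13, and the groups of genes are separated by colour. Mt2 and Mt1 lie at the lower end, and Slc39a4 and Slc30a1 lie on the other side of 0.

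Iron-sulfur cluster genes gave 1 higher and 4 lower of 24 (20.8% called, near the 21.2% of all tested genes, median log2 fold change -0.16). Fdxr, which passes electrons for cluster assembly, had -0.69 (adjusted p = 0.00734), Hscb, a cochaperone of assembly, -0.48 (adjusted p = 0.0390), and Ciao2b, of the cytosolic machinery, 0.47 (adjusted p = 0.0275, limma). Hscb lost its call when any of 8 libraries was left out (adjusted p = 0.0579 to 0.0921, all but WT replicate 1 and RhoB-/- replicate 3), and Ciao2b in 6 (0.0520 to 0.0663, without WT replicates 1, 2, 4 or 5 or RhoB-/- replicates 4 or 5). Copper genes gave 0 higher and 2 lower of 12 (16.7%, median log2 fold change 0.02), namely Sco2 at -0.64 and Steap2 (adjusted p = 0.0117 for Sco2, limma).
Glucocorticoid targets other than Mt2 gave 2 higher and 0 lower of 10, a share close to the 21.2% of all tested genes, with Sgk1 at 1.25 and Fkbp5 at 1.08 (log2 fold change, adjusted p = 0.00404 and 8.44e-05, limma). Markers of other cells were present. Of 6 lymphocyte markers above the filter 5 were higher (83.3% called, against 21.2% of all tested genes), Gzmb at 2.11, Ptprc at 1.18 and Cd8a at 1.10 among them. However, Cd8a averaged under 1 TPM in WT and passed the filter only through the RhoB-/- libraries. The list summed to 7.41 to 16.3 TPM in WT and 34.2 to 41.0 TPM in RhoB-/- libraries. Of the 4 macrophage markers above the filter 1 was higher (Cd68, 1.19), which is 25% called, near the 21.2% of all tested genes. Cd68 and also Lyz2, which was not called, averaged under 1 TPM in WT and passed the filter only through the RhoB-/- libraries. The macrophage list summed to 17.6 to 31.1 TPM in WT and 22.5 to 46.9 TPM in RhoB-/- libraries. Of 2 stromal markers above the filter 1 was higher (Dcn, 1.505), which is 50% called, against 21.2% of all tested genes. The stromal list summed to 4.67 to 6.24 TPM in WT and 7.20 to 37.2 TPM in RhoB-/- libraries. The highest stromal sum was in the library labelled RhoB-/- replicate 5, where Dcn had 24.51 TPM. All these sums include the genes of a list below the filter. No marker of these lists was at 0 in all libraries. Of the 5 erythroid markers above the filter none was called by limma (0 also at an unadjusted p below 0.05). The sums of the whole erythroid list spread widely within both genotypes, from 225.8 to 903.6 and from 56.0 to 942.0 TPM. The part of these cells in the iron and metallothionein values was not tested.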

How the data were processed

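RNA of colonic IECs of 5 WT and 5 RhoB-/- mice was sequenced with paired-end reads. The authors used SeqPrep and Sickle for trimming, HISAT2 for alignment, StringTie for assembly and RSEM for quantification, and the deposited values are TPM with 2 decimals. The submitters' processing notes name GRCm38.p6 and edgeR, and versions of these tools are not given in the sources used here. TPM keeps no depth, so counting error is unknown. Library totals were 971419 to 993229 TPM.

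Genotype and replicate number were taken from the sample titles. Differences were fitted with limma 3.58.1 in R 4.3.3 (lmFit, eBayes with trend) on log2(TPM + 1), for genes averaging 1 TPM or more, with Benjamini-Hochberg adjustment over all of them. Fold changes are on that scale, where low genes change less than in TPM. The fit was tested on simulated data. Single values and ratios were compared by exact permutation over the 252 labelings (SciPy 1.17.1). One library was made per mouse, as far as the sources say, and replicate numbers do not pair mice (correlation of same-numbered libraries -0.087 to 0.072).

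The members and gene lists were chosen with earlier results of these data known. Named genes are the members, genes of the iron and zinc lists that were called or averaged 50 TPM or more, Slc40a1, Slc11a2, Hmox1, Mtf1, Slc30a1, Aco1, Ireb2 and Ncoa4, the 3 largest called changes in each other list, and the 2 genes most correlated with each member. Any other gene was named after its values were seen. Alternatives were other pseudocounts, filters and scalings, a replicate block, no trend and each library left out. Positions and sequences are from GENCODE M21 (GRCm38) and RefSeq (GRCm38.p6). No set test was run.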

Additional observations from a re-analysis of the deposited data

Results flagged for a closer look

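Among 81 groups of 5 values, 5 held a library far from the other 4, by a gap of more than 0.71 of the group's range, a number that chance alone would bring to about 4.05. The library labelled RhoB-/- replicate 5 stood out for Rhob, with 110.87 TPM against 0.09 to 0.57 TPM in the other RhoB-/- libraries. In the same library Slc39a4 had 353.68 TPM and Slc30a1 had 35.55 TPM, both above the other RhoB-/- libraries. Without this library the log2 fold changes were 1.22 for Slc39a4 and 0.71 for Slc30a1 (adjusted p = 4.04e-05 and 0.00294, limma). Hfe had 2.92 TPM in WT replicate 4, below the other WT libraries, and without it the log2 fold change of Hfe was -0.78 (adjusted p = 0.0100, limma). The Fth1 to Ftl1 ratio was 1.79 in WT replicate 1, where Fth1 was lowest.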

How the results depend on the processing

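Under the 18 alternative fits, Mt1, Mt2, Tfrc and Heph kept their direction and an adjusted p below 0.05 (limma), with log2 fold changes of -2.01 to -1.72, -2.86 to -2.45, -1.10 to -0.89 and 0.45 to 0.69. Fth1 did not pass under any of them (0.07 to 0.32), nor did Ftl1, whose log2 fold change was between -0.00362 with quantile normalization and 0.24. The replicate block left these calls as they were, although the replicate numbers do not pair mice and only libraries of replicate 3 correlated best with their own number (Heph adjusted p = 0.0396). Under it Lrp1 and Fech were among the genes not called (adjusted p = 0.0538 and 0.0743, limma), and 8 other metal genes rather than 16 were lower. Further named metal genes lost their calls in alternative fits that kept all libraries. These were Cpox, Hscb, Slc39a5, Slc39a13 and Slc48a1 in 2 fits each, and Slc39a7 and Ciao2b in 1 each (adjusted p = 0.0510 to 0.0950, limma). Named genes other than the members and the metal genes, such as Mcm5, Cldn7 and Mki67, were not examined individually in the alternative fits. Whether their calls hold there is not known. All genes called lower numbered 1734, against 1104 with a mean TPM of at least 5, 1059 with the replicate block, 3729 after removal of mitochondrial genes and 1072 at an unadjusted p below 0.05 with a fold above 1.5. Without the filter on low TPM 1197 genes were lower. Leaving out single libraries gave 860 to 2929 lower and 716 to 1158 higher. Higher genes numbered 995, against 2010 with libraries centred on their median, with 1645 lower, and 1587 with quantile normalization. Of the other metal genes, 6 were higher and 16 lower, against 12 higher with centring, 10 higher with quantile normalization, 10 lower without the filter, 8 lower with the replicate block and 31 lower without mitochondrial genes, and single libraries left out gave 7 to 27 lower and 5 to 8 higher. Among genes that never passed, the sign turned for Slc40a1 (-0.0432) and Ncoa4 (-0.0549) without mitochondrial genes, for Ireb2 (0.00532) and Mtf1 (0.0710) with centring and for Mtf1 (0.0954) with quantile normalization. With single libraries left out, Slc40a1 ranged from -0.13 to 0.17, Ncoa4 from -0.0294 to 0.0523, Alas1 from -0.0215 to 0.175 and Mtf1 from -0.110 to 0.0488. The causes were not tested. Depth is unknown, so how far it limits any gene, those near 0 such as Cybrd1 included, cannot be stated.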
